A study of Homo sapiens with 9 samples.

Results

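Keratins are the intermediate filament proteins of epithelial cells, and 10 of their genes were followed here: the type II genes *KRT5*, *KRT7*, *KRT8*, *KRT80* and *KRT81* and the type I genes *KRT10*, *KRT14*, *KRT17*, *KRT18* and *KRT19*. They were taken by symbol from the 60708 annotated genes of the count tables, and all 10 were present. The labels give MDA-MB-231 as the source of all libraries, a human triple-negative breast cancer cell line with mesenchymal features. There were 3 libraries labelled WT and 3 each labelled CS16 and CS19. The study describes CS16 and CS19 as *SNAI1*-KO cells that each grew from 1 single cell. This followed transfection with Cas9, guide RNA and repair plasmids against *SNAI1* and selection with puromycin. The labels give all 9 libraries as untreated, and no label says that the 3 libraries of a group came from separate cultures, so the p-values measure the spread between these libraries, which may be technical.

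A keratin filament is built from pairs of 1 type I and 1 type II protein, and a keratin without a partner is degraded. *KRT8* and *KRT18* form the pair of simple epithelia, including the luminal cells of the mammary gland, where *KRT7* and *KRT19* are also made. *KRT5* and *KRT14* form the pair of basal and myoepithelial cells, and *KRT17* is made in basal cells of glands and in wounded skin. *KRT10* belongs to differentiating epidermis, *KRT80* to many epithelia, and *KRT81* to the hair shaft. *SNAI1* encodes a zinc-finger repressor of epithelial genes, so the comparison asked which keratins differed in cells labelled as lacking it.

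The libraries held 19527195 to 28627777 counted read pairs, and values are given as counts or as CPM, counts scaled to library size with TMM factors. A count of 3 in a single library corresponded to 0.0982 to 0.171 CPM. *SNAI1*, the targeted gene, had 16, 38 and 21 counts in WT, 26, 40 and 49 under the label CS16, and 57, 94 and 94 under the label CS19, so the counts did not separate the labels by a loss of *SNAI1* RNA. *CDKN2A*, known as deleted in MDA-MB-231, had 0 counts in the 3 WT libraries and 1106 to 1575 in the 6 others. Of 12 genes typical of MDA-MB-231, 11 were lower in the libraries labelled *SNAI1*-KO, where *S100A6* and *CD44* had at most 1 and 2 counts, and the summed level of the list was 12920 to 15010 CPM in WT, 391.0 to 425.4 CPM in CS16 and 361.0 to 371.6 CPM in CS19. By the rule for calls given below, 14.3% of all genes tested were lower. *S100A6* and *CD44* passed the filter on low values only through WT and had to be lower to be tested. The 12 genes were chosen with earlier results of these data known, so the number lower is a description. The study reports lower *CD44* and *EGFR* RNA in its *SNAI1*-KO cells by RT-qPCR. The values of *CDKN2A* and of the 12 genes go against the label MDA-MB-231 of the 6 libraries. The identity of these libraries is therefore in question, and they are called by their labels only, also where the word clones is used. Counts per gene do not show whether the *SNAI1* locus was edited. The study reports deletions at *SNAI1* in its reads, lower RNA of its exons by RT-qPCR, and no detectable SNAI1 protein. In the counts used here *SNAI1* was not lower. The second WT library stood apart from the others of its group: its chi-square per degree of freedom against them was 188 and 230, while these differed from each other by 14.6. The calls of keratin genes were therefore also made without that library.

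*KRT8*, *KRT7*, *KRT80*, *KRT81*, *KRT18*, *KRT19* and *KRT17* were lower in the libraries labelled *SNAI1*-KO than in WT, and none of the 10 genes was higher. Genes were called in edgeR's quasi-likelihood test where the log2 fold change was 2 or more, up or down, and the p adjusted by Benjamini-Hochberg over all genes tested was below 0.05. *KRT10* was not called, while *KRT5* and *KRT14* had too few counts to pass the filter on low values. The 7 called genes were the same with the libraries of CS16 alone, with those of CS19 alone, and without the second WT library. Over all genes tested, 14.3% were called lower with both clones together, 15.3% with CS16 and 14.4% with CS19. *KRT7*, *KRT17*, *KRT19*, *KRT80* and *KRT81* passed the filter only through their counts in WT, so a gene like these had to be lower to be tested at all, and their number is a description. The 3 comparisons share the WT libraries.

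*KRT8* (ENSG00000170421.12, chr12:52897187-52949954, minus strand, GRCh38) encodes the type II partner of *KRT18*. Its counts were 12436, 15364 and 13901 in WT, 44, 56 and 95 in CS16, and 35, 43 and 52 in CS19. The WT libraries were all high and the 6 others all low, without overlap, and the lowest value of CS16, 2.16 CPM, lay above the highest of CS19, 1.86 CPM. The mean level of *KRT8* was 734.5 ± 132.8 CPM (SD, n = 3) in WT, and it was 2.87 ± 0.829 CPM for CS16 and 1.72 ± 0.138 CPM for CS19. With both clones the log2 fold change was -8.32 (SE 0.28, adjusted p = 9.88e-10, edgeR), and the pooled counts were 318.3-fold lower, with an exact 95% interval of 285.4 to 356.1 that covers counting error only. *KRT8* was thus counted in each of the 6 libraries, above the 3 counts taken as the floor.

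*KRT18* (ENSG00000111057.11, chr12:52948871-52952906, plus strand) lies head to head with *KRT8* and encodes its type I partner. It had 10324, 10784 and 10966 counts in WT, 1008, 1027 and 1215 in CS16, and 1406, 1755 and 2097 in CS19. It was the keratin with the most counts in the 6 libraries labelled *SNAI1*-KO, and the groups did not overlap in either direction: CS16 was lowest, CS19 lay above it and WT was highest. The mean level of *KRT18* was 562.4 ± 53.0 CPM in WT (SD, n = 3), against 48.9 ± 0.544 CPM for CS16 and 69.5 ± 6.15 CPM for CS19. Its log2 fold change against WT was -3.25 with both clones (SE 0.17, adjusted p = 2.41e-08, edgeR), -3.49 with CS16 and -2.98 with CS19. Of all genes tested, 28.6% had CPM values below WT without overlap with both clones, 33.7% with CS16 and 32.1% with CS19.

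Since *KRT8* and *KRT18* were lower than in WT by different amounts, their ratio within a library differed between the groups. *KRT18* had 0.830, 0.702 and 0.789 counts per count of *KRT8* in the WT libraries, 22.9, 18.3 and 12.8 in CS16, and 40.2, 40.8 and 40.3 in CS19. Libraries of WT held fewer counts of *KRT18* than of *KRT8*, and the order was turned in every library of the clones. The mean log2 ratio was -0.37 ± 0.12 in WT, 4.13 ± 0.42 in CS16 and 5.34 ± 0.01 in CS19 (SD, n = 3 each). These ratios are given as a description, with no test.

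The counting bears on this pair. In the annotation used for counting, *KRT8* and *KRT18* shared 525 exonic bases on opposite strands, which is 7.63% of the exons of *KRT8* and 17.1% of those of *KRT18*. Strand was not used and pairs that overlapped exons of several genes were not counted, so such pairs are in neither value. Both genes also have many processed copies in the genome, 51 listed for *KRT8* and 68 for *KRT18*, and pairs that aligned equally well to several places were not counted either. The copies of *KRT8* together had 229 to 392 counts in WT, 147 to 261 in CS16 and 211 to 243 in CS19. They made up 1.62% to 2.49% of the counts of *KRT8* and its copies in WT, and 72.4% to 85.8% in the libraries labelled *SNAI1*-KO. For *KRT18* and its copies the share was 1.02% to 3.11% in WT and 7.23% to 10.9% in the others.

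The copy with the most counts was *KRT8P12* on chromosome 3, with 87, 96 and 92 counts in WT, 65, 55 and 99 in CS16 and 69, 83 and 72 in CS19. Its log2 fold change with both clones was -0.62 (SE 0.22, adjusted p = 0.0257, edgeR), short of the fold needed for a call. *KRT8P46* on chromosome 4 had 25 to 59 counts in WT and 33 to 68 in the others. *KRT18P31* on chromosome 5 had 2.61, 6.67 and 1.69 CPM in WT, highest in the second library, and 0.524 to 1.32 CPM in the others. It was called with both clones (log2 fold change -2.02, SE 0.43, adjusted p = 0.00144) and with CS19 (-2.46, adjusted p = 0.00721), but not with CS16 (-1.63, adjusted p = 0.0372). Without the second WT library it was called in none of these, at -1.27 with both clones (adjusted p = 0.00872), -0.90 with CS16 (adjusted p = 0.0261) and -1.72 with CS19 (adjusted p = 0.000331), an alternative chosen after the data were seen. Of 151 keratin pseudogenes, 15 were tested with both clones, 3 were lower (*KRT18P31*, *KRT8P3* and *KRT87P*) and 0 were higher. Over all genes tested, 14.3% were called lower and 12.6% higher. *KRT8P3* and *KRT87P* were named after their values were seen. Whether pairs of the parent genes were assigned to a copy was not tested.

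Of the members, *KRT5*, *KRT8* and *KRT10* had an entry in the RefSeq promoter table (GRCh38). The window of *KRT5* overlaps annotated transcript ends and is not printed. The 250 bases before the listed start are shown for *KRT8*, as the type II gene with counts left in every library, and for *KRT10*, as the member that was not called, each 5′ to 3′ along its gene. The RefSeq start of *KRT8* lies 21393 bases upstream of the start of its MANE Select transcript, so the window chr12:52926470-52926719 belongs to a longer transcript. The window of *KRT10* is chr17:40822615-40822864. Both are on the minus strand, and capitals mark a match to a searched motif.
KRT8: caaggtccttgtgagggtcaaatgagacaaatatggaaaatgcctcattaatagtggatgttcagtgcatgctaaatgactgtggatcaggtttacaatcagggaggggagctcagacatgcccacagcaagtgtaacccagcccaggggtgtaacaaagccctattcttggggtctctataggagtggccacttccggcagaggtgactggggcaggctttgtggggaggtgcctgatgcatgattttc
KRT10: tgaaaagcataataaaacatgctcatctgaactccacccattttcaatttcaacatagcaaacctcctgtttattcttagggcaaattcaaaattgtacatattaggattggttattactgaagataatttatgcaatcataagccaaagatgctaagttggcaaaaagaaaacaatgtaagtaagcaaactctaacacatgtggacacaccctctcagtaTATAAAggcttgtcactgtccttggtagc

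The motifs searched on both strands were the E-box CAGGTG, bound by *SNAI1* and its relatives, the AP-1 site TGANTCA, the GC box GGGCGG, the TATA box TATAAA and the forkhead site TGTTTAC. None of these motifs contains another. Over 35116 promoters of the same length, 17.5% held CAGGTG, 6.57% TGANTCA, 42.6% GGGCGG, 10.7% TATAAA and 2.98% TGTTTAC. The window of *KRT10* held TATAAA, whose first base lies 29 bases before the start. That of *KRT8* held none of the 5 motifs, and that of *KRT5* held CAGGTG 130 bases before its start.

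*KRT7* (ENSG00000135480.16, chr12:52232520-52252186, plus strand) encodes a type II keratin of glandular and transitional epithelia. It had 6389, 8707 and 6708 counts in WT, 1, 0 and 2 in CS16, and 0 in each library of CS19. All WT libraries were high and the others were at or under the floor of 3 counts. *KRT7* averaged 385.4 ± 97.5 CPM in WT (SD, n = 3). The pooled counts of CS16 were 8435-fold lower (exact 95% interval 2886 to 40910, from 3 counts), and those of CS19 were at least 9594-fold lower, taking 3 counts over the group for the 0 observed. The adjusted p with both clones was 4.37e-10 (edgeR).

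The antisense gene *KRT7-AS*, which shares 282 exonic bases with *KRT7* (7.05% of its exons), had 375, 235 and 313 counts in WT and at most 2 in the others. Pairs that overlapped exons of both genes were not counted. As strand was not used, the strand of the pairs counted for either gene is not known.

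*KRT80* (ENSG00000167767.14, chr12:52168996-52192014, minus strand) encodes a type II keratin found near desmosomes. Its counts were 1817, 4412 and 1856 in WT, 1, 1 and 0 in CS16, and 1, 0 and 2 in CS19. The second WT library, at 251.7 CPM, was far above the other WT libraries, at 89.6 and 95.3 CPM, and all 3 were far above the clones. The pooled counts of both clones were 4011-fold lower (exact 95% interval 1718 to 12360, from 5 counts). The log2 fold change was -11.80 (SE 0.50, adjusted p = 3.88e-09, edgeR), and -11.16 (SE 0.23) without the second WT library.

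*KRT81* (ENSG00000205426.10, chr12:52285913-52291534, minus strand) encodes a type II hair keratin. It had 236, 274 and 275 counts in WT and 0 in each of the 6 libraries of the clones. The pooled counts were at least 649.1-fold lower with both clones, at least 303.7-fold with CS16 and at least 345.4-fold with CS19. Its near-identical neighbour *KRT86* had 39, 35 and 52 counts in WT, 0 in each library of CS16, and 2, 0 and 2 in CS19, and was called lower in each comparison with WT. As the authors' counting left out pairs that aligned equally well to both, the levels of *KRT81* and *KRT86* are uncertain, and how the pairs divide between them was not tested.

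*KRT19* (ENSG00000171345.13, chr17:41523617-41528308, minus strand) encodes the shortest type I keratin, a common marker of glandular epithelium. It had 6252, 10734 and 6487 counts in WT, 0 in each library of CS16, and 0, 0 and 1 in CS19. *KRT19* was thus among the highest keratins in WT, at 308.3, 612.3 and 333.0 CPM, and was represented by 1 count in the 6 other libraries together. The pooled counts were at least 9081-fold lower in CS16 and 30990-fold lower in CS19 (exact 95% interval 5561 to 1224000, from 1 count). The adjusted p with both clones was 3.39e-10 (edgeR).

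*KRT17* (ENSG00000128422.17, chr17:41619442-41624842, minus strand) encodes a type I keratin of basal cells. Its counts were 11, 22 and 12 in WT, 1, 5 and 2 in CS16, and 1, 0 and 4 in CS19. All libraries were low, and those of WT lay above those of the clones without overlap. The pooled counts were 8.59-fold lower with both clones (exact 95% interval 4.55 to 17.35). The log2 fold change was -3.05 (SE 0.58, adjusted p = 0.000714, edgeR) with both clones, -2.64 (adjusted p = 0.00956) with CS16 and -3.48 (adjusted p = 0.00569) with CS19. Single libraries moved it: the log2 fold change was -3.43 without the second library of CS16 and -4.77 without the third library of CS19, each for that clone against WT. *KRT17* has near-identical copies in the genome, so that its level is uncertain.

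*KRT14* (ENSG00000186847.6, chr17:41582279-41586895, minus strand), the type I keratin of basal epithelium, had 1, 5 and 4 counts in WT, 0 in each library of CS16, and 0, 1 and 0 in CS19. The highest count of CS19 equalled the lowest of WT, and the gene had too few counts to be tested. Without the filter on low values *KRT14* was called lower with both clones, at a log2 fold change of -3.75 (adjusted p = 0.0083, edgeR), and with CS16, but not with CS19. Its type II partner *KRT5* (ENSG00000186081.12, chr12:52514575-52520530, minus strand) had 0 counts in all 9 libraries. Over the 6 libraries of the clones 3 counts correspond to 0.0211 CPM, so a level below that was not detectable at this depth.

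*KRT10* (ENSG00000186395.9, chr17:40818117-40822614, minus strand), a type I keratin of the upper epidermis, was the only tested member that was not called. It had 493, 75 and 479 counts in WT, 196, 310 and 222 in CS16, and 246, 214 and 351 in CS19. WT and the clones overlapped because of the second WT library, which had the lowest value of all 9, 4.28 CPM, while the other WT libraries had the highest, 24.3 and 24.6 CPM. With both clones the log2 fold change was -0.71 (SE 0.41, adjusted p = 0.150, edgeR), with CS16 -0.65 (adjusted p = 0.380) and with CS19 -0.69 (adjusted p = 0.333). Without the second WT library these became -1.18 (adjusted p = 0.00012), -1.15 (adjusted p = 3.25e-05) and -1.18 (adjusted p = 1.47e-07), past the p threshold and short of the fold needed for a call. The antisense gene *KRT10-AS1*, which shares 56 exonic bases with *KRT10*, had 538, 180 and 716 counts in WT, 462 to 796 in CS16 and 602 to 1054 in CS19, and was not called.

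**Figure D1:**
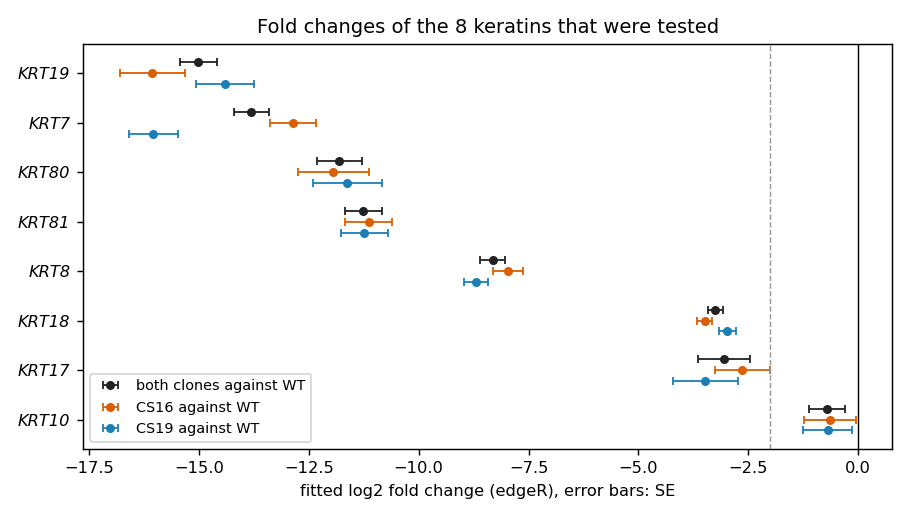
Fitted log2 fold changes (x axis) of the 8 keratins that were tested, with both clones together (black), CS16 (orange) and CS19 (blue) against WT, and bars of 1 SE. The dashed line is the fold cut-off at -2. All points of 7 genes lie left of it, and those of *KRT10* lie between it and 0. Where a group had a count of 0 the fitted value depends on edgeR's prior count and is no bound.

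Levels of different genes were compared in TPM, a level that divides counts by gene length. In WT the order was *KRT18* at 590.3 ± 93.5 TPM, *KRT19* at 584.4 ± 277.9 TPM, *KRT8* at 344.5 ± 82.5 TPM and *KRT7* at 312.7 ± 101.3 TPM (SD, n = 3), and each of these overlapped the next. *KRT80* followed with 60.2 to 198.7 TPM, then *KRT10* at 25.7 ± 16.8 TPM and *KRT81* at 23.0 ± 4.28 TPM, which overlapped each other, and *KRT17*, *KRT14* and *KRT5* were below 1 TPM on average. The annotated exons of *KRT8* span 6881 bases against 1784 for its MANE Select transcript, and with the lengths of MANE Select transcripts *KRT8*, at 846.4 TPM, and *KRT18*, at 815.8 TPM, were the highest keratins of WT. In the clones *KRT18* came first, followed by *KRT10* and then *KRT8*, without overlap between neighbours, and the others followed near 0. In CS16 these were 49.8 ± 6.69, 15.7 ± 2.97 and 1.29 ± 0.363 TPM, and in CS19 they were 69.0 ± 11.2, 14.9 ± 1.03 and 0.761 ± 0.118 TPM (SD, n = 3).

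The summed level of all 29 type I and 26 type II keratin genes was 1541 to 2706 TPM in WT, 65.3 to 77.0 TPM in CS16 and 76.7 to 97.8 TPM in CS19. *KRT18* held 25.5% to 32.8% of that sum in WT, 66.7% to 73.8% in CS16 and 78.1% to 83.6% in CS19. *KRT19* held 25.5% to 33.4% in WT and at most 0.0496% in the clones. The keratin sum of the clones was thus for the most part type I, from *KRT18* and *KRT10*.

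**Figure D2:**
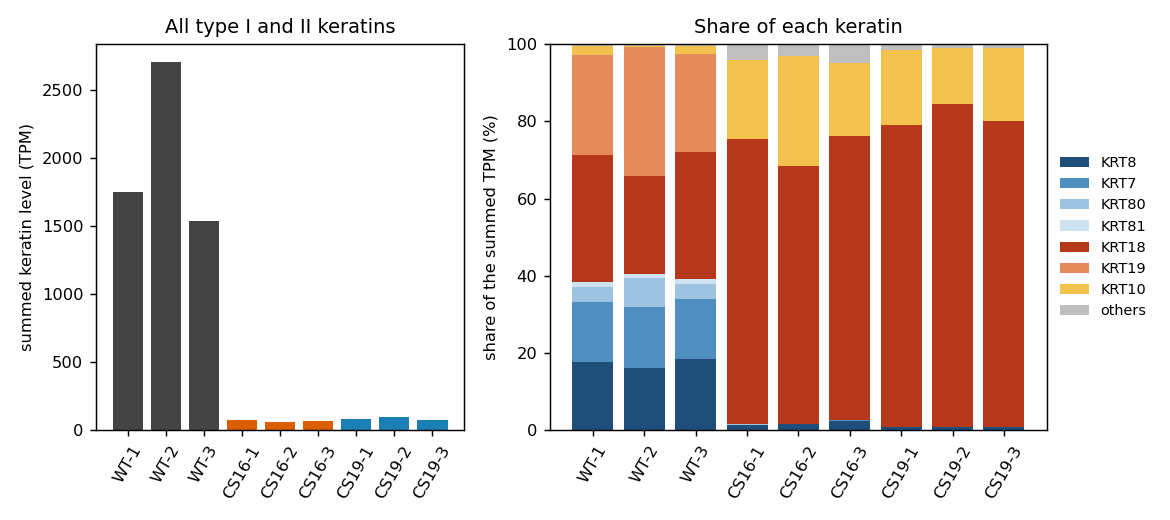
Left, the summed level of all type I and type II keratin genes in TPM in each of the 9 libraries. Right, the share of that sum in percent held by 7 of the members (blue, type II; red to yellow, type I) and by all other keratins (grey). *KRT18* takes 66.7% to 83.6% of the bar in the libraries of the clones.

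Summed over all keratin genes, the type I level was 1.59, 1.47 and 1.54 times the type II level in the WT libraries, 57.1, 55.7 and 33.1 times in CS16, and 84.9, 92.5 and 85.9 times in CS19. No library of a clone came near WT, and the spread was widest in CS16. With MANE Select lengths, an alternative chosen after the data were seen, the mean ratio was 1.03 in WT, 25.6 in CS16 and 52.4 in CS19. The size of the ratio depended on the length used and its order between the groups did not.

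The clones were then compared with each other, as the study describes each as grown from 1 cell. Of the members *KRT8*, *KRT18* and *KRT10* were tested, and 0 were called. Of all genes 0.496% were called lower and 0.633% higher in CS16. By adjusted p alone, which 12.7% of all genes passed lower and 14.7% higher, *KRT8* was higher in CS16 than in CS19 and *KRT18* was lower. For *KRT8* the log2 fold change was 0.74 (SE 0.24, adjusted p = 0.0327, edgeR), and for *KRT18* it was -0.51 (SE 0.07, adjusted p = 0.000167, edgeR). The values of the clones did not overlap for either gene, and such separation was seen in 20.1% of all genes lower and 20.4% higher. The difference in *KRT8* missed the p threshold in several other fits. Its adjusted p was 0.0537 with DESeq2, 0.0613 with the replicate number as a block, 0.155 in a fit shared by all 3 groups, 0.201 without the third library of CS16, where the log2 fold change was 0.49, and 0.1005 and 0.0769 without the first and the third library of CS19. That of *KRT18* missed it in the shared fit (adjusted p = 0.0846). *KRT10* differed by a log2 fold change of 0.04 (adjusted p = 0.891), with overlapping libraries.

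Among the 45 other keratin genes, 3 were tested against WT, and each was called with both clones and with each clone, also without the second WT library. *KRT15* and *KRT86* passed the filter only through WT, and *KRT222* only through the clones. Genes like these had to differ to be tested at all, so their number is a description. *KRT15*, a type I keratin of basal cells and hair follicles, had 126, 148 and 102 counts in WT and 0 in the clones, with a log2 fold change of -10.20 (SE 0.51, adjusted p = 4.64e-06, edgeR). *KRT86* was lower, with the values given beside *KRT81*. *KRT222*, a short and divergent relative of type I keratins, moved the other way: it had 0 counts in WT, 51, 39 and 69 in CS16, and 19, 17 and 18 in CS19. Against WT it was called higher at a log2 fold change of 8.10 (SE 1.34, adjusted p = 0.000498), and CS16 lay above CS19 by 1.71 (SE 0.27, adjusted p = 0.00042), short of the fold needed for a call. Higher calls made up 12.6% of all genes tested with both clones, 11.8% with CS16 and 12% with CS19.

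Keratin genes lie in a type II cluster on chromosome 12, with *KRT18* at its end, and a type I cluster on chromosome 17. From the first to the last keratin of chromosome 12 (52168996 to 52952906), 6 of 27 keratin genes were tested and 6 were lower with both clones, as were *KRT7-AS* and *KRT87P*, the only other genes tested there. Of the 10 nearest tested genes outside, *TNS2* and *IGFBP6* were lower, *SCN8A*, *TAMALIN* and *NR4A1* were higher, and *ACVR1B*, *ATG101*, *EIF4B*, *TNS2-AS1* and *SPRYD3* were not called. On chromosome 17 (40654665 to 41624842) 5 of 28 keratin genes were tested: *KRT15*, *KRT19* and *KRT17* were lower, *KRT222* was higher, and *KRT10* was not called. Outside it *IGFBP4* and *TNS4* were lower, *HAP1*, *P3H4* and *FKBP10* were higher, and *TOP2A*, *SMARCE1*, *EIF1*, *JUP* and a Y RNA copy were not called. The genes next to each cluster thus included calls in both directions, and no test was made of whether neighbours moved together. Except *KRT8*, *KRT18* and *KRT222*, the called genes inside the clusters passed the filter only through their counts in WT. *KRT222* passed it only through the clones, so the counts of calls inside the clusters are a description. Over all genes tested with both clones, 14.3% were called lower and 12.6% higher.

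Keratin filaments are one of several kinds of intermediate filament. Of 13 genes for other kinds, 9 were tested with both clones, and 4 of these were lower and 2 higher. Over all genes tested with both clones, 14.3% were called lower and 12.6% higher, shares that also stand beside the lists below. The median log2 fold change of the 9 filament genes was -1.52, and that of all genes was -0.004. *LMNA*, for the lamins A and C of the nucleus, was 1138 ± 661.8 CPM in WT (SD, n = 3) and 56.0 to 84.7 CPM in the clones (log2 fold change -4.05, adjusted p = 2.08e-07, edgeR). *NES*, for the progenitor filament nestin, was lower by 4.09 on the log2 scale, and *SYNM*, for synemin, was lower by 2.60. The neuronal filament genes *NEFL* and *NEFM* had 0 counts in WT and 69.8 to 137.6 and 16.8 to 36.6 CPM in the clones. *NEFL* and *NEFM* passed the filter only through the clones and had to be higher to be tested. The numbers called among the filament genes are therefore a description. *VIM*, for the mesenchymal filament vimentin, was not called: it had 664.5 to 1094 CPM in WT and 303.1 to 355.8 CPM in the clones (log2 fold change -1.52, adjusted p = 6.52e-06).

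Desmosomes and hemidesmosomes anchor keratin filaments at the membrane. Of 14 desmosome genes, 9 were tested with both clones, 1 was lower and 2 were higher (median log2 fold change -0.28). Of all genes, 14.3% were called lower and 12.6% higher. *DSC3*, for the cadherin desmocollin 3, had 0 counts in WT and 83.7 to 152.3 CPM in the clones, and *DSC2* was 6.01 ± 1.51 CPM in WT and 86.1 to 96.1 CPM in the clones (log2 fold change 3.91, adjusted p = 1.32e-08, edgeR). *PKP3*, for the plaque protein plakophilin 3, was 28.2 ± 18.9 CPM in WT and had at most 2 counts in a library of the clones. *DSC3* passed the filter only through the clones and *PKP3* only through WT. Such genes had to differ to be tested, so the numbers called are a description. *DSP*, for desmoplakin, which binds keratin filaments, and *JUP*, for plakoglobin, were not called, at log2 fold changes of -0.68 (adjusted p = 0.00297) and -1.75 (adjusted p = 0.000731). They and *VIM* stand outside the rule for naming genes and were chosen after their values were seen, except *JUP*, which lies beside the cluster of chromosome 17.

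Of 13 plakin and hemidesmosome genes, all 13 were tested, 11 were lower and 0 were higher with both clones (median log2 fold change -5.26). *PLEC*, for plectin, a linker of keratin to other filaments, spanned 1575 to 9887 CPM in WT and 71.9 to 85.1 CPM in the clones (log2 fold change -5.80, SE 0.51, adjusted p = 1.47e-06, edgeR). *DST* and *MACF1*, for large plakin linkers, had log2 fold changes of -2.17 and -2.51, and *ITGA6*, for the laminin receptor subunit of hemidesmosomes, had -3.38. *DST* was not called with CS19 alone, where 10 of the 13 were lower. Some genes of this list passed the filter only through WT, so the number called lower is a description.

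Of 12 transcription factors known to act on keratin genes, 9 were tested with both clones, 4 were lower and 1 was higher (median log2 fold change -0.89). The median was -1.58 over the 8 tested with CS16 and -2.62 over the 9 tested with CS19. *EHF*, an ETS factor of epithelia, was 194.3 ± 64.9 CPM in WT and had at most 2 counts in a library of the clones, with a log2 fold change of -12.49 (SE 0.43, adjusted p = 1.02e-09, edgeR). *KLF4*, a factor of epidermal differentiation, had a log2 fold change of -2.95, and *ELF3*, another epithelial ETS factor, had -5.41. *EHF* and *ELF3* passed the filter only through WT, so the number called lower in this list is a description. *GRHL1*, a grainyhead factor of epithelia, was 1.37 ± 0.287 CPM in WT, 3.54 to 4.51 CPM in CS16 and 10.8 to 13.8 CPM in CS19, and was called higher with both clones (log2 fold change 2.53, adjusted p = 0.00133) and with CS19, but not with CS16. *TFAP2A*, for the factor AP-2 alpha of ectodermal epithelia, was named after its values were seen: it had 3.35, 12.2 and 2.98 CPM in WT, 4.66 to 6.72 CPM in CS16 and 0.773 to 1.18 CPM in CS19. It was called lower with CS19 (log2 fold change -2.62, adjusted p = 0.00819) but not with CS16 (-0.09, adjusted p = 0.906) or both clones (-0.89, adjusted p = 0.291). The second library raised the WT mean of *TFAP2A*, and no call without that library is given here. *TFAP2A* was called higher in CS16 than in CS19 (2.52, adjusted p = 3.1e-06).

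Lists of cell type markers differed from each other in direction. Of 11 basal and myoepithelial markers 9 were tested, 6 were lower and 0 higher, with 2049 to 2409 CPM in WT, 55.7 to 67.8 CPM in CS16 and 47.6 to 51.8 CPM in CS19. Of 11 neuronal markers 4 were tested, 1 (*TUBB3*, log2 fold change -3.47) was lower and 3 (*NEFL*, *NEFM* and *SYP*) higher. The neuronal list summed to 4.73 to 7.76 CPM in WT, 161.9 to 178.1 CPM in CS16 and 127.9 to 136.6 CPM in CS19. *NEFL* and *NEFM*, also counted among the filament genes, held most of that sum in the clones. *NEFL* and *NEFM* passed the filter only through the clones, and *PAX8* of the nephric list only through WT. Such genes had to differ to be tested, so the numbers called in these lists are a description. *STMN2*, *ELAVL4* and *DCX* had 0 counts in every library of CS19. Of 13 nephric markers 9 were tested, 2 were lower and 4 higher, with 76.2 to 119.6 CPM in WT and 139.6 to 160.1 CPM in the clones, while *PAX8* had 0 counts in CS16. Of 10 haematopoietic markers 3 were tested, 1 was lower and 1 higher, with at most 7.82 CPM in any library. The part of these marker genes in the keratin values was not tested. In bulk libraries fewer cells of a type and less RNA per cell cannot be told apart.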

How the data were processed

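The 9 libraries were grouped by their labels. Per the labels and the study's methods, total RNA was depleted of ribosomal RNA and made into stranded libraries, and the paired reads were trimmed (Trimmomatic 0.36), aligned to GRCh38 (STAR 2.7.2b) and counted with featureCounts of Subread 2.0.0 on gencode release 38. The deposited values are raw counts of read pairs per gene, 1 table per library. The authors' command, in the file headers, required both mates and a mapping quality of 30 or more, dropped chimeric pairs, did not use strand, and left out pairs that aligned to several places or overlapped several genes.

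Counts were filtered with filterByExpr, scaled by TMM and tested with edgeR 4.0.16 (quasi-likelihood test) in R 4.3.3 over all genes, separately for both clones, CS16 and CS19 against WT and for CS16 against CS19. The SE of a fold change was derived from its F statistic, as the change over the root of F. The fold cut-off of 2 on the log2 scale follows the study's methods. TPM was computed from the counts and the deposited exon lengths, or MANE Select lengths of gencode release 44. A group at 0 was set to 3 counts over the group, and exact intervals at 95% cover counting error only, since copies made by PCR could not be removed. Alternatives were DESeq2 1.42.0, RLE scaling, other filters and cut-offs, a shared fit, a block for the replicate number, and the loss of each library in turn.

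Named genes were the 10 members, other keratins with a mean of at least 1 CPM in a group, the 3 pseudogenes with the most counts, of each partner list the called genes with the 4 highest mean CPM and any called higher, and the genes beside the clusters. The counts and summed level of the mammary luminal list are not reported here. Members and lists were chosen with earlier results of these data known.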

Additional observations from a re-analysis of the deposited data

Results flagged for a closer look

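For *KRT19*, 1 library of the clones stood off from the others: the third library of CS19 had 1 count, or 0.0327 CPM, and the other 5 libraries had 0. With the others at 0 any count stands off in this way, and a single count is below the floor of 3.

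For *KRT8* and *KRT18* the clones differed from each other in edgeR's test of that difference. *KRT8* was higher in CS16 than in CS19 by 0.74 on the log2 scale (adjusted p = 0.0327, edgeR), higher in 3 of 3 libraries, and over the alternatives its adjusted p ranged from 0.0111 to 0.201. *KRT18* had a log2 fold change of -0.51 (adjusted p = 0.000167, edgeR), lower in 3 of 3 libraries of CS16, and over the alternatives its adjusted p ranged from 7.62e-08 to 0.0846.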

How the results depend on the processing

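The number of members called lower stayed at 7 to 8 in the comparisons with WT under each alternative run, and at 7 without each library in turn. The count of 8 added *KRT14*, with both clones under DESeq2 and without a filter, and with CS16 without a filter. Between the clones the count was 0, except 2 without a fold cut-off, where *KRT8* (0.74) and *KRT18* (-0.51) were called. *KRT10* between the clones ranged from -0.21 to 0.19 over the alternatives and changed sign without the second library of CS16 (-0.21) and without that of CS19 (-0.04). With the replicate number as a block 7, 7 and 7 members were lower against WT and 0 differed between the clones, and the block changed no call at the fold needed. The deviations of same-numbered libraries correlated at -0.206 to 0.19, and those of differently numbered libraries at -0.212 to 0.218. This gave no sign that the numbers pair the libraries, and so few libraries cannot exclude it. Without 1 library the fitted fold of 4 called members moved by over 1.5 times and stayed called: *KRT17* in CS16 without the second library of CS16 (-3.43) and in CS19 without the third library of CS19 (-4.77), *KRT80* without the second WT library (-11.16, -11.33 in CS16, -10.98 in CS19), the third of CS16 (-11.32) or the third of CS19 (-12.27), *KRT7* without the third of CS16 (-14.72, -13.58 in CS16), and *KRT19* without the third of CS19 (-16.10, -16.03 in CS19). The mean ratio of type I to type II keratins was 1.53 in WT, 48.6 in CS16 and 87.8 in CS19. It was 0.791, 21.7 and 42.6 from CPM, 1.03, 25.6 and 52.4 with MANE Select lengths, and 106.9 in CS19 over the 10 members. Leaving out a library gave 1.504 to 1.565 in WT, 44.4 to 56.4 in CS16 and 85.4 to 89.2 in CS19. Depth limits *KRT5*, *KRT14* and *KRT17*, which had at most 22 counts in a library.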
